A study of Caenorhabditis elegans with 8 samples.

Results

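The 70 genes described here encode proteins of the mitochondrial ribosome of Caenorhabditis elegans. They were chosen by name alone, as every gene of the deposited expression table whose WormBase symbol has the form mrpl (large subunit, 41 genes) or mrps (small subunit, 29 genes) followed by a number and, in some, a letter. Subunits are given by the symbols alone, so single proteins may sit in the other subunit of the ribosome. The table holds 47087 loci. Whole wild-type (N2) worms were profiled by sequencing of their poly(A)-selected RNA, in 8 libraries. In the DL group, 4 libraries came from worms kept under cycles of 12 h of LED light at 8000 lux and 12 h of darkness. In the NL group, 4 libraries came from worms left in constant darkness. Per the labels, worms of both groups were of the same wild-type strain, were grown from synchronized first-stage larvae for 40 h at 20 °C, on NGM with OP50 bacteria as food, and were labelled as young adults when the light regime began. The number of light cycles is not given. The labels name 4 batches, with 1 DL and 1 NL library in each. They do not state whether replicates were separate cultures, so p-values reflect only how far these libraries differ from one another, and that spread may be technical. The series asks how a cycle of light and darkness changes the transcriptome relative to constant darkness.

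The mitochondrial ribosome makes the few proteins that mitochondrial DNA encodes, all of them membrane subunits of the respiratory chain and ATP synthase. Its RNA comes from the mitochondrial genome, while its proteins are encoded in the nucleus, made in the cytosol and imported, so that its assembly needs both genomes. Some of its proteins descend from the bacterial ribosome and others were added in the mitochondrial lineage. In C. elegans these genes are known above all from mrps-5, whose knockdown extends lifespan and switches on the mitochondrial unfolded protein response.

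None of the 70 genes passed the test between DL and NL, and most were slightly higher in DL. The libraries that stood apart in these genes were NL 1 and NL 2, in which the whole family took 0.233% and 0.239% of the reads. In the other 6 libraries, among them NL 3 and NL 4, it took 0.322% to 0.334%.

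Values are FPKM, fragments scaled to the length of the gene and to the size of the library, so that levels can be set side by side between genes. Depth was 18628030 to 20394371 gene reads per library, as recovered from the steps of low FPKM values. A member held 165 to 2510 of these reads per library. Transcripts of adult worms (yolk proteins and adult collagens, 7 tested genes) had a mean log2(FPKM + 1) of 1.17, 5.14, 0.928 and 1.04 in DL 1 to DL 4, against 0.636, 0.579, 4.49 and 0.111 in NL 1 to NL 4. DL 2 and NL 3 thus stood apart from the other 6 libraries in these transcripts although all carry the same stage label. The libraries DL 2 and NL 3 did not stand apart in the mitochondrial ribosomal protein genes. The read total that the FPKM values imply was 1.16 times the recovered reads in DL 1, 0.938 times in DL 3 and 0.972 to 1.06 times in the other 6 libraries. This places all FPKM values of DL 1 lower, and those of DL 3 higher, than the reads alone would. The order of the libraries is given in FPKM for each gene below, with RPM (recovered reads scaled to the same total in each library) added where the lowest libraries named are others on that scale.

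All 70 genes were expressed in every library and passed the filter of a mean of 1 FPKM. Their mean levels over the 8 libraries lay close together: 50 of the 70 lay between 30 and 60 FPKM, with a median of 44.5 FPKM and quartiles of 40.9 and 58.5 FPKM. The median tested gene stood at 11.3 FPKM, and 44.5 FPKM was the 83.0th percentile of the tested genes. The highest member was 7.17 times the lowest. Levels of the large subunit genes had a median of 43.7 FPKM and those of the small subunit genes 47.3 FPKM. The 26 genes without a bacterial counterpart, by the mammalian nomenclature of these proteins, had a median of 42.7 FPKM and the 44 with one 45.7 FPKM.

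At the top of the order stood mrpl-12, at 101 ± 22.3 FPKM (SD, n = 8 libraries of both groups). It encodes the protein that forms the flexible stalk by which the large subunit recruits translation factors. Next came mrpl-41 at 83.5 ± 20.9 FPKM, mrpl-9 at 83.4 ± 15.6, mrpl-11 at 77.4 ± 11.3 and mrps-5 at 76.7 ± 6.94 (SD, n = 8 libraries each). The first of these lay within the spread of mrpl-12, and the 4 differed from each other by less than their spread. At the bottom were mrpl-42 at 24.6 ± 3.89 FPKM, mrpl-21 at 24.6 ± 5.93, mrpl-45 at 18.7 ± 4.32 and mrps-31 at 14.1 ± 3.20 (SD, n = 8 libraries each). The first 2 of these were level, and mrpl-45 and mrps-31 lay below them, while the gap between the top and the bottom of the order was larger than the spread of either. Since 59.3% of the exon bases of mrpl-42 are shared with lpl-1 on the same strand, the place of mrpl-42 in this order is uncertain.

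**Figure D1:**
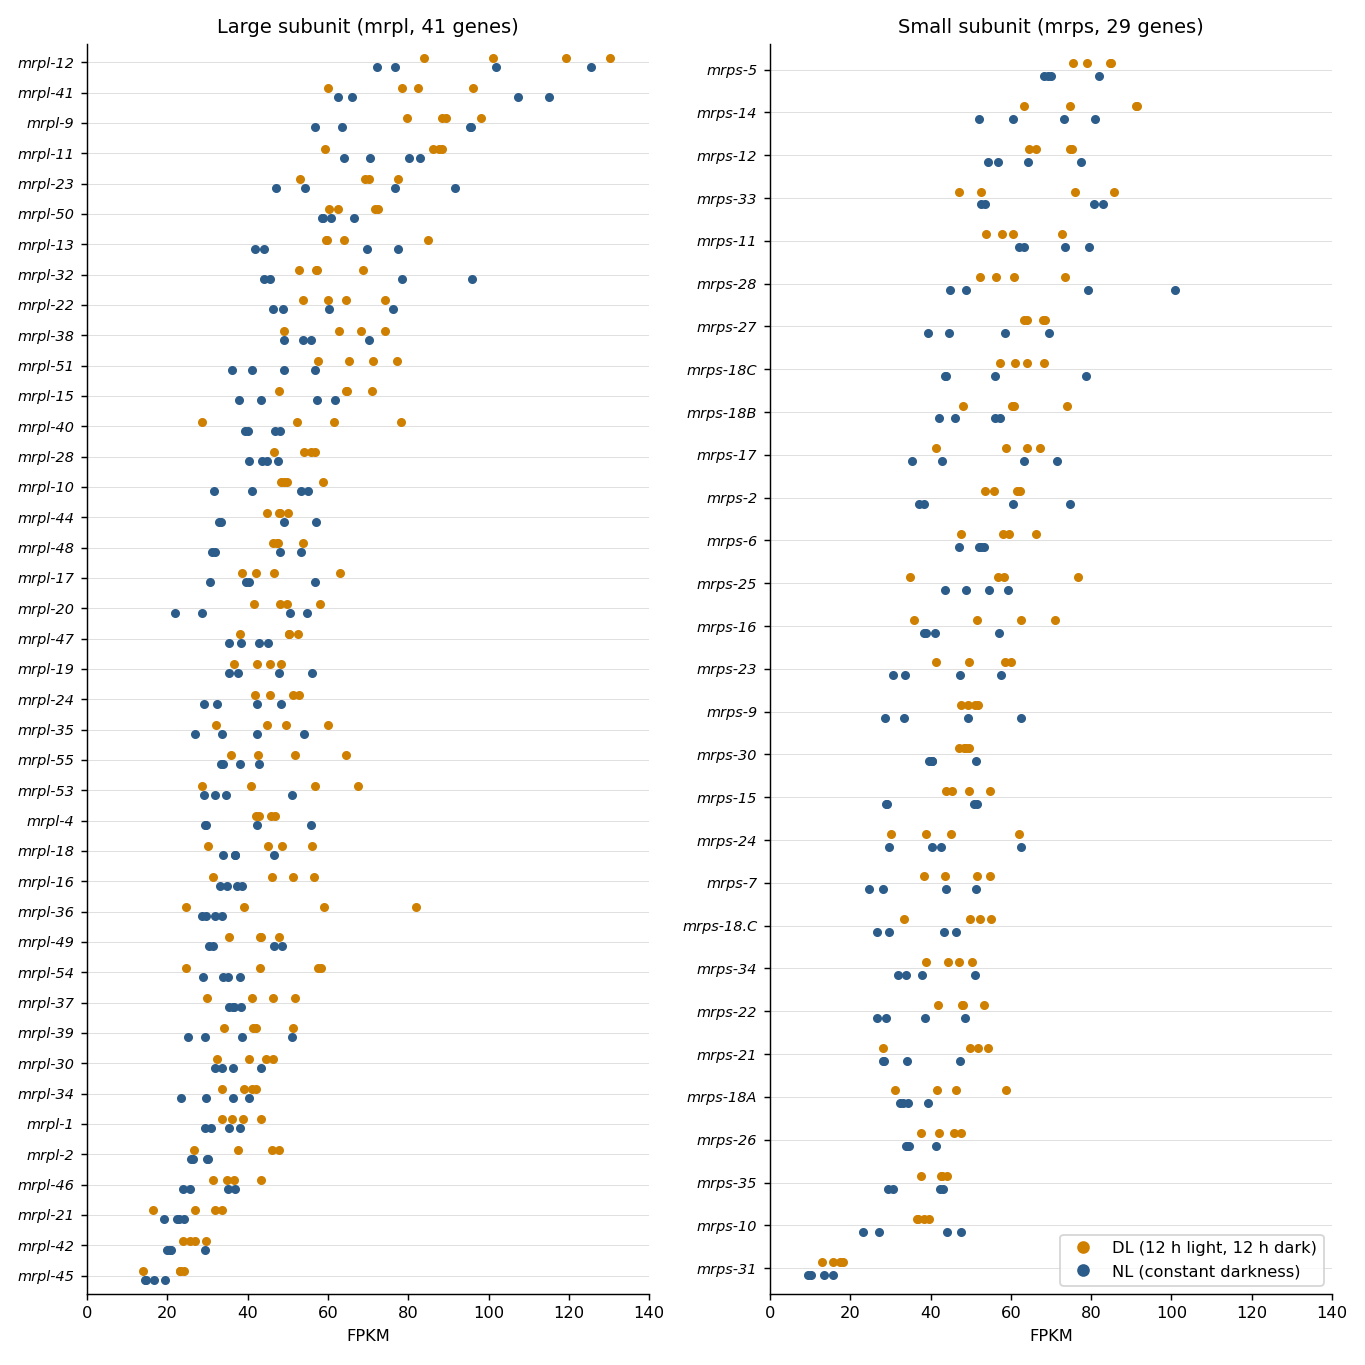
FPKM of the 70 mitochondrial ribosomal protein genes, in the 41 large subunit genes (left) and the 29 small subunit genes (right), ordered by the mean over the 8 libraries. Each point is 1 library, with DL above NL in each row. In most rows the lowest points are NL libraries, and only mrpl-51 has all 4 DL points to the right of all 4 NL points.

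In the fit across 14358 genes, limma called 101 genes at a Benjamini-Hochberg adjusted p under 0.05, which is 0.703% of those tested (25 genes with the batch as a block). Of the 70 members it called 0. The smallest adjusted p was 0.113, for mrpl-51. At an unadjusted p under 0.05, 3 members were higher in DL and 0 lower, against a background of 12.4% higher and 8.24% lower over all tested genes, so that a smaller share of these genes than of all genes reached that mark. With the batch as a block limma also called 0 members, and it called 0 with log2 RPM in place of FPKM. On that scale, too, 64 of the 70 genes had positive log2 changes, against 54% of all tested genes.

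Most of the genes pointed the same way although none passed. The log2 change (DL minus NL, on the log2(FPKM + 1) scale) was positive for 64 of the 70 genes, against 53.5% of all tested genes. The median log2 change was 0.23, with quartiles of 0.16 and 0.32, against a median of 0.03 over all tested genes. The single genes ran from -0.18 to 0.58, with standard errors of 0.12 to 0.32, and 0 reached 1.5-fold on that scale. Large and small subunit genes had the same median log2 change, 0.23, with 38 of 41 and 26 of 29 positive. Genes with a bacterial counterpart had a median log2 change of 0.22 (40 of 44 positive), and those without one 0.25 (24 of 26 positive). All DL libraries lay above all NL libraries for 1 member, mrpl-51, against a background of 4.44% of the tested genes. In RPM they did so for 2 members, mrpl-51 and mrpl-28, against 4.36%. All DL libraries lay below all NL libraries for 0 members, against 4.8%.

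The libraries behind this direction can be read from the share of reads. The 70 genes together took 0.322, 0.326, 0.328 and 0.332% in DL 1 to DL 4, against 0.233, 0.239, 0.331 and 0.334% in NL 1 to NL 4. The Wilson 95% intervals, which cover counting error only, were 0.231 to 0.236% for NL 1, 0.237 to 0.241% for NL 2 and within 0.319 to 0.336% for each of the other 6 libraries. Means were 0.327 ± 0.00427% in DL and 0.284 ± 0.0555% in NL (SD, n = 4 each). The spread within NL was thus larger than the difference of the means, since NL 3 and NL 4 lay at the level of DL while NL 1 and NL 2 lay below every other library. The same split appeared in both subunits. Large subunit genes took 0.175, 0.182, 0.183 and 0.185% in DL 1 to DL 4, against 0.129, 0.132, 0.184 and 0.183% in NL 1 to NL 4. Small subunit genes took 0.147, 0.144, 0.145 and 0.147% in DL 1 to DL 4, against 0.105, 0.106, 0.146 and 0.15% in NL 1 to NL 4.

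**Figure D2:**
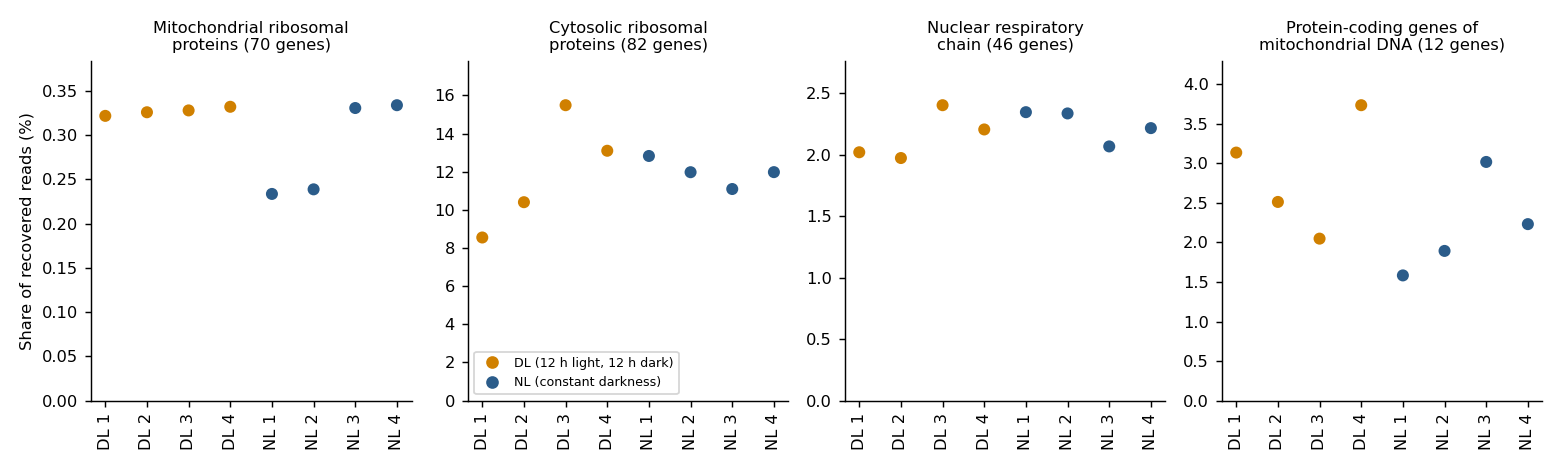
Share of the recovered reads (%) taken by 4 gene groups in each of the 8 libraries (DL in orange, left; NL in blue, right), 1 point per library, axes from 0. The mitochondrial ribosomal protein genes lie at 0.322% to 0.334% in 6 libraries and at 0.233% and 0.239% in NL 1 and NL 2, a split that the cytosolic ribosomal protein and nuclear respiratory chain genes do not show. In the genes of mitochondrial DNA, NL 1 and NL 2 are also the lowest, at 1.58% and 1.89%, with the other libraries at 2.05% to 3.73%.

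Gene by gene, the picture was the same. On the RPM scale, NL 1 and NL 2 were the 2 lowest of the 8 libraries for 55 of the 70 genes, against 13.9% of the tested genes, and 1 of them was the lowest for 61. In FPKM these counts were 39 (background 12.9%) and 50. The lowest library in FPKM was NL 1 for 27 genes, NL 2 for 23 and DL 1 for 17, against 11.3%, 10.2% and 14% of all tested genes. The highest was DL 3 for 29 genes, against 11.8%. Relative to each gene's mean over the 8 libraries, the median deviation in log2 RPM was 0.03, 0.12, 0.14 and 0.13 in DL 1 to DL 4, against -0.38, -0.36, 0.11 and 0.14 in NL 1 to NL 4. In log2(FPKM + 1) it was -0.15, 0.10, 0.25 and 0.20 in DL 1 to DL 4, against -0.35, -0.33, 0.06 and 0.16 in NL 1 to NL 4. DL 1 was the one library that the change of scale moved from below to slightly above the gene means.

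**Figure D3:**
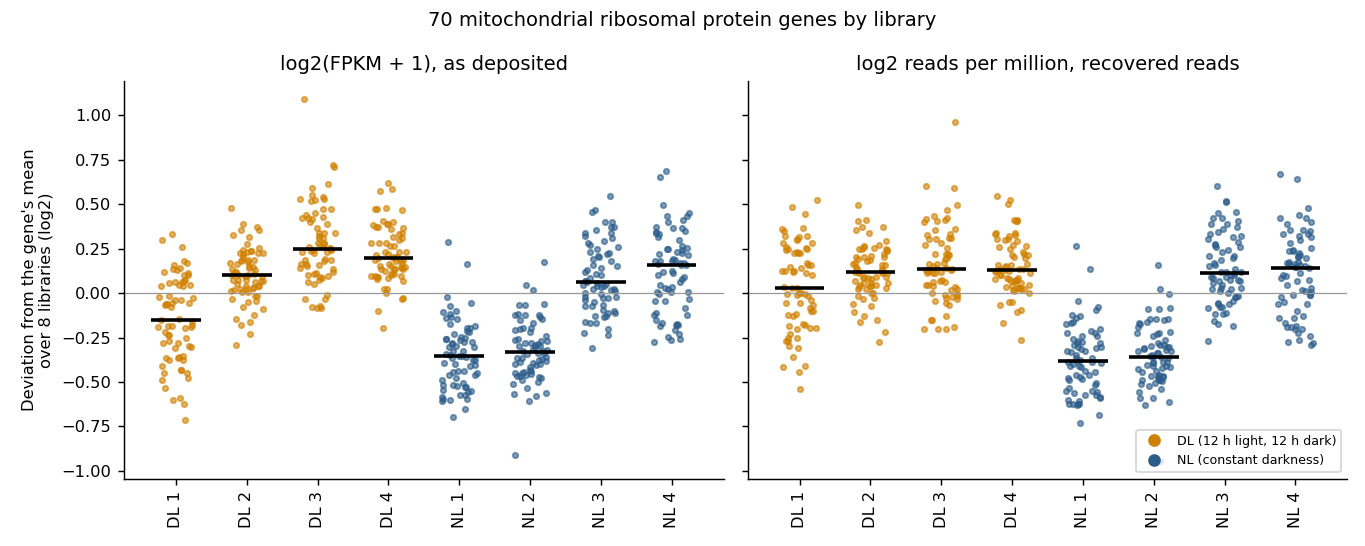
Deviation of each of the 70 genes from its own mean over the 8 libraries (log2), in log2(FPKM + 1) on the left and in log2 RPM on the right. Points are genes, black bars the median of a library. NL 1 and NL 2 have medians of -0.35 and -0.33 in FPKM and of -0.38 and -0.36 in RPM, and DL 1 moves from -0.15 to 0.03 between the scales.

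Of the 28 pairs of libraries, NL 1 and NL 2 were the most alike in the proportions of these genes. Chi-square per degree of freedom over the members was 3.23 for this pair and 5.57 to 31.7 for the others, so that no pair agreed within sampling noise, for which it would be near 1. Without both of these libraries, an alternative added after the values were seen, 38 of the 70 genes were higher in DL, against 52.8% of all tested genes. The median log2 change was then 0.02, against 0.03 over all tested genes, and with RPM it was 0.01. That fit called 6 genes (0.0418%), and 0 of them were members. Leaving out the lowest libraries of the members, both of NL, lowers their difference by itself. Without NL 3 and DL 2, the libraries with adult transcripts, 69 of 70 genes were higher in DL, against 54.1% of all tested genes, with a median log2 change of 0.30. That fit called 1493 genes (10.4%), and 0 of them were members.

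Within the 4 batches the difference was uneven. In log2(FPKM + 1), DL lay above NL for 49 members in batch 1, 66 in batch 2, 48 in batch 3 and 44 in batch 4, against 51.3%, 51.4%, 49% and 55.8% of all tested genes. The median difference was 0.18, 0.43, 0.20 and 0.08 in batches 1 to 4, and that of all tested genes was 0.02, 0.03, -0.0016 and 0.08. In batch 4 the genes thus stood where the median tested gene did. In log2 RPM the members' median difference was 0.39 and 0.47 in batches 1 and 2, which hold NL 1 and NL 2, and 0.03 and 0.02 in batches 3 and 4. All tested genes had medians of 0.22, 0.06, -0.16 and 0.04 on that scale, so that in batch 3 too the members lay above the median tested gene. DL lay above NL in all 4 batches for 13 of the 70 members, against 13.3% of all tested genes, and DL lay below NL in all 4 for 0, against 10.8%.

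**Figure D4:**
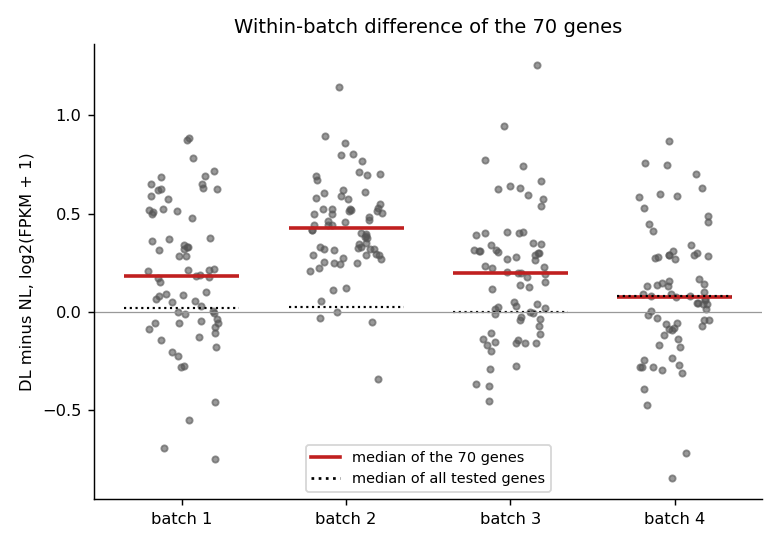
Difference between the DL and the NL library of each of the 4 batches (DL minus NL, log2(FPKM + 1)) for the 70 genes. Points are genes, red bars the median of the 70, dotted lines the median of all tested genes. The red medians are 0.18, 0.43, 0.20 and 0.08, and only in batch 4 does the median lie at that of all tested genes.

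Of the genes of the factor-binding stalk, mrpl-12 and mrpl-11 were among the 4 highest members. The mean of mrpl-10 was 48.3 FPKM, near the members' median of 44.5 FPKM. For mrpl-12 (chromosome III, 10707761 to 10708521) the levels were 83.9, 101, 130.2 and 119.2 FPKM in DL 1 to DL 4, against 72.3, 76.7, 102 and 125 FPKM in NL 1 to NL 4. The groups overlapped, with NL 1 and NL 2 the lowest libraries and DL 3 the highest (NL 4 in RPM). For mrpl-12 the log2 change was 0.22 ± 0.21 (SE; limma adjusted p = 0.614). Its partner mrpl-10, whose product anchors the stalk to the ribosome, had 58.8, 48.9, 49.7 and 48.3 FPKM in DL 1 to DL 4, against 31.6, 41, 55 and 53.3 FPKM in NL 1 to NL 4. Again NL 1 and NL 2 were lowest, and NL 3 and NL 4 lay above 3 of the 4 DL libraries. The gene of the stalk base, mrpl-11, had 59.2, 86.1, 87.6 and 88.3 FPKM in DL 1 to DL 4, against 64, 70.4, 80.3 and 83 FPKM in NL 1 to NL 4. In FPKM DL 1 was the lowest of all 8 libraries, and the other 3 DL libraries lay above every NL library. In RPM the values of mrpl-11 were 47.2, 61.1, 56.5 and 59 RPM in DL 1 to DL 4, against 44.1, 48.6, 58.4 and 57.6 in NL 1 to NL 4. NL 1 was then the lowest, and DL 3 lay below NL 3 and NL 4. The opposite stalk, which guides the spent tRNA out, holds the product of mrpl-1, with 38.9, 36, 33.6 and 43.2 FPKM in DL 1 to DL 4, against 30.8, 29.3, 38 and 35.2 FPKM in NL 1 to NL 4. Its lowest libraries were NL 2 and NL 1, and DL 3 lay below NL 3 and NL 4.

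Around the tunnel through which the new protein leaves, NL 1 and NL 2 were the lowest libraries in 3 of the 5 genes described in FPKM, and in 4 of the 5 in RPM. The gene mrpl-4 had 42.1, 42.8, 46.7 and 45.7 FPKM in DL 1 to DL 4, against 29.5, 29.5, 42.4 and 55.7 FPKM in NL 1 to NL 4. Equal lowest values thus came from NL 1 and NL 2, and NL 4 was highest. For mrpl-22, whose product lines the tunnel wall, the values were 53.7, 59.9, 74.2 and 64.5 FPKM in DL 1 to DL 4, against 46.2, 48.7, 60.2 and 76.2 FPKM in NL 1 to NL 4. For mrpl-23, which encodes a protein of the tunnel exit, they were 53, 69.2, 70.2 and 77.4 FPKM in DL 1 to DL 4, against 47, 54.2, 91.5 and 76.6 FPKM in NL 1 to NL 4. In mrpl-23 the lowest library was NL 1, the next DL 1, and the highest NL 3. In RPM it had 35.2, 40.9, 37.7 and 43.1 RPM in DL 1 to DL 4, against 27, 31.2, 55.4 and 44.2 in NL 1 to NL 4, so that NL 1 and NL 2 were the lowest on that scale. A further gene of the tunnel region, mrpl-24, had 45.7, 52.7, 41.9 and 51.4 FPKM in DL 1 to DL 4, against 29.1, 32.3, 48.2 and 42.4 FPKM in NL 1 to NL 4, with NL 1 and NL 2 below the rest. In mammals the product of mrpl-45 holds the tunnel exit to the inner membrane. The worm gene (chromosome III, 1196389 to 1202008) was among the least abundant members, with 14, 23.1, 23 and 24.2 FPKM in DL 1 to DL 4, against 14.4, 16.7, 14.6 and 19.4 FPKM in NL 1 to NL 4. In FPKM DL 1 was the lowest library, slightly under NL 1 and NL 3, and the other 3 DL libraries lay above every NL library. In RPM it had 34.6, 51, 46.2 and 50.3 RPM in DL 1 to DL 4, against 30.8, 36, 33 and 41.8 in NL 1 to NL 4. NL 1 was lowest on that scale, DL 1 lay above NL 1 and NL 3, and the other 3 DL libraries again lay above every NL library. For mrpl-45 the log2 change was 0.33 ± 0.20 (SE; limma adjusted p = 0.381).

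The protein encoded by mrpl-51 is one that bacteria lack. This gene (chromosome IV, 12031324 to 12032154, WBGene00011740) had 57.4, 77.2, 65.3 and 71.2 FPKM in DL 1 to DL 4, against 36.2, 41.1, 56.8 and 49 FPKM in NL 1 to NL 4. It was the only member whose groups did not overlap in FPKM, and the nearest libraries were DL 1 at 57.4 FPKM and NL 3 at 56.8 FPKM. On the RPM scale they did not overlap either, with 48.6, 58.2, 44.8 and 50.6 RPM in DL 1 to DL 4, against 26.5, 30.2, 43.9 and 36.1 in NL 1 to NL 4. The groups of the large subunit gene mrpl-28 were also apart on that scale, with 53.3, 58, 50.2 and 53.6 RPM in DL 1 to DL 4, against 44.5, 43.4, 49.8 and 40.2 in NL 1 to NL 4. For mrpl-51 the log2 change was 0.57 ± 0.17 (SE; limma unadjusted p = 0.00813, Benjamini-Hochberg adjusted p = 0.113). Since its groups did not overlap, DL was necessarily above NL in all 4 batches. With 1 library left out at a time, its log2 change was 0.47 to 0.68 and its adjusted p 0.0357 to 0.283. The lowest of these p came without NL 3, the NL library nearest to DL in this gene, in a fit that called 1561 of all genes (10.9%), and it was the one of the 8 fits that called mrpl-51.

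The largest log2 change of all, 0.58 ± 0.32 (SE; limma adjusted p = 0.346), belonged to mrpl-36, which encodes a very small protein of the large subunit and is the shortest member, with 309 bases of exon. Its levels were 24.7, 39.1, 82 and 59 FPKM in DL 1 to DL 4, against 28.6, 29.7, 33.7 and 31.8 FPKM in NL 1 to NL 4. DL 3 and DL 4 stood out on the high side and DL 1 was the lowest of the 8 libraries, so that the groups overlapped. The 2 remaining members at an unadjusted p under 0.05 were mrpl-2 and mrps-22. A core protein near the catalytic centre is encoded by mrpl-2, with 26.5, 37.4, 47.7 and 45.9 FPKM in DL 1 to DL 4, against 26.4, 25.8, 29.8 and 30 FPKM in NL 1 to NL 4. The NL libraries lay close together, and DL 1 lay among them. Its log2 change was 0.45 ± 0.19 (SE; limma adjusted p = 0.224). The fifth in size was mrpl-20, which encodes an early-binding large subunit protein, with 41.5, 49.8, 58 and 48.2 FPKM in DL 1 to DL 4, against 28.7, 22, 50.4 and 54.7 FPKM in NL 1 to NL 4. Far below the other 6 libraries lay NL 1 and NL 2, while NL 3 and NL 4 lay within the range of DL in FPKM. Its log2 change was 0.42 ± 0.28 (SE; limma adjusted p = 0.448), and -0.10 without NL 1 and NL 2.

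Among the most abundant members, mrpl-9 (chromosome I, 10732543 to 10733666) had 98.2, 79.6, 88.3 and 89.5 FPKM in DL 1 to DL 4, against 56.7, 63.6, 95.5 and 95.4 FPKM in NL 1 to NL 4. All but NL 1 and NL 2 lay between 79.6 and 98.2 FPKM, and these 2 lay at 56.7 and 63.6 FPKM. The gene mrpl-41, of a protein without a bacterial counterpart, had 59.97, 78.5, 96 and 82.5 FPKM in DL 1 to DL 4, against 62.5, 66, 107 and 114.96 FPKM in NL 1 to NL 4. NL 3 and NL 4 were the highest libraries, while DL 1, NL 1 and NL 2 were the lowest, in that order. In RPM mrpl-41 had 43.4, 50.6, 56.2 and 50.01 RPM in DL 1 to DL 4, against 39.1, 41.3, 70.9 and 72.3 in NL 1 to NL 4, with NL 1 and NL 2 below DL 1. The gene mrpl-32, whose product is matured by a protease inside mitochondria in yeast and mammals, had 68.6, 57.3, 57 and 52.7 FPKM in DL 1 to DL 4, against 44.2, 45.5, 78.5 and 95.8 FPKM in NL 1 to NL 4. Its 2 highest libraries were NL 4 and NL 3 and its 2 lowest NL 1 and NL 2, with all DL libraries between them. The log2 change was -0.11 ± 0.24 for mrpl-41 and -0.09 ± 0.25 for mrpl-32 (SE). Without NL 3 and DL 2 both were slightly positive, by less than these SE. Leaving out NL 3, a high library of both genes, raises the difference by itself.

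Near the bottom of the large subunit were mrpl-21 and mrpl-42. For mrpl-21 (chromosome III, 4242672 to 4243561) the values were 16.3, 31.8, 33.7 and 26.8 FPKM in DL 1 to DL 4, against 22.8, 19.2, 22.3 and 24.1 FPKM in NL 1 to NL 4. DL 1 was lowest, and the other 3 DL libraries lay above all NL libraries. The levels of mrpl-42 were 26.9, 29.6, 23.8 and 25.6 FPKM in DL 1 to DL 4, against 20.6, 19.98, 29.4 and 20.9 FPKM in NL 1 to NL 4. NL 3 lay among the DL libraries and the other 3 NL libraries lay below them. Of the exon bases of mrpl-42, 59.3% are shared with lpl-1 on the same strand, so reads of that part cannot be assigned to 1 of the genes.

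In the small subunit, mrps-5 was the most abundant and one of the most even. A protein of the decoding site is encoded by this gene (chromosome V, 12563487 to 12565801, WBGene00008452), and its levels were 78.9, 75.5, 85 and 84.7 FPKM in DL 1 to DL 4, against 69.3, 69.98, 68.3 and 82 FPKM in NL 1 to NL 4. NL 1, NL 2 and NL 3 lay below every DL library and NL 4 within the range of DL. The log2 change was 0.16 ± 0.12 (SE; limma adjusted p = 0.49), positive in all 4 batches. The gene mrps-12, for the other well-known protein of the decoding centre, had 64.5, 74.8, 75.4 and 66.3 FPKM in DL 1 to DL 4, against 56.8, 54.3, 77.6 and 64.3 FPKM in NL 1 to NL 4. Its lowest libraries were NL 1 and NL 2 and its highest NL 3.

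Levels of mrps-7, which encodes an early-binding protein of the head of the small subunit, were 38.4, 43.5, 54.8 and 51.6 FPKM in DL 1 to DL 4, against 24.7, 28.2, 43.9 and 51.4 FPKM in NL 1 to NL 4. They followed the family closely, with NL 1 and NL 2 lowest and NL 4 within the range of DL. The gene mrps-2 had 53.6, 55.7, 61.4 and 62.3 FPKM in DL 1 to DL 4, against 37.2, 38.4, 74.7 and 60.5 FPKM in NL 1 to NL 4, with NL 1 and NL 2 lowest and NL 3 highest. The 4 genes with the symbol mrps-18 encode versions of 1 bacterial protein. Their mean levels over the libraries were 39.6 FPKM for mrps-18A, 55.6 for mrps-18B, 59.1 for mrps-18C and 42 for mrps-18.C, and their log2 changes were 0.31, 0.26, 0.21 and 0.39. None of the 4 passed the test, with limma adjusted p of 0.380 to 0.596.

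Proteins added in mitochondria make up much of the small subunit. For mrps-22 (chromosome II, 10582618 to 10584236) the levels were 41.8, 48.1, 47.7 and 53.3 FPKM in DL 1 to DL 4, against 26.7, 28.9, 38.6 and 48.5 FPKM in NL 1 to NL 4. Well under the rest lay NL 1 and NL 2, and NL 4 reached the level of DL. Its change on the log2 scale was 0.44 ± 0.19 (SE; limma adjusted p = 0.239). For mrps-27, which belongs to the pentatricopeptide repeat family of RNA-binding proteins, they were 64, 68.5, 63.4 and 67.9 FPKM in DL 1 to DL 4, against 39.3, 44.5, 58.5 and 69.6 FPKM in NL 1 to NL 4. The DL libraries lay close together, NL 4 lay above them, and NL 1 and NL 2 lay far below. The least abundant member of all, mrps-31 (chromosome III, 3627234 to 3630372), had 15.6, 18.2, 13 and 17.4 FPKM in DL 1 to DL 4, against 9.36, 10.2, 13.4 and 15.8 FPKM in NL 1 to NL 4. Lowest were NL 1 and NL 2, and NL 3 and NL 4 lay within the range of DL. For mrps-31 the log2 change was 0.39 ± 0.19 (SE; limma adjusted p = 0.293).

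The remaining genes with negative log2 changes were small subunit genes, mrps-11, mrps-28 and mrps-33, together with mrpl-19 at -0.01 ± 0.17 (SE). The gene mrps-28 had 52.4, 56.3, 73.4 and 60.9 FPKM in DL 1 to DL 4, against 48.8, 44.9, 79.2 and 101 FPKM in NL 1 to NL 4. Its 2 highest libraries were NL 4 and NL 3 and its 2 lowest NL 2 and NL 1. The gene mrps-33 had 47.1, 52.6, 85.7 and 76 FPKM in DL 1 to DL 4, against 53.6, 52.7, 82.9 and 80.8 FPKM in NL 1 to NL 4. Here the 8 libraries fell at 47.1 to 53.6 FPKM in DL 1, DL 2, NL 1 and NL 2 and at 76 to 85.7 FPKM in the other 4. In RPM the same 4 libraries were low, at 26.8 to 27.6 RPM, with NL 2 and NL 1 the lowest by a small margin, and the other 4 lay at 37.4 to 44.3 RPM. Log2 changes were -0.10 ± 0.26 and -0.06 ± 0.24 (SE; limma adjusted p of 0.866 and 0.921). Both were positive without NL 3 and DL 2, by less than these SE, and NL 3 is a high library of both genes.

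The most unlike member was mrps-11 (chromosome V, 12493239 to 12494622), which encodes a protein of the platform of the small subunit. It had 53.8, 57.8, 72.9 and 60.6 FPKM in DL 1 to DL 4, against 79.4, 73.6, 62 and 63.4 FPKM in NL 1 to NL 4. NL 1 and NL 2 were its highest libraries, the reverse of the family, and DL 1 and DL 2 its lowest, while DL 3 lay among the NL libraries. On the RPM scale it had 47.6, 45.5, 52.2 and 44.9 RPM in DL 1 to DL 4, against 60.7, 56.4, 50.02 and 48.8 in NL 1 to NL 4, so that NL 1 and NL 2 were highest on both scales. Its log2 change of -0.18 ± 0.14 was the most negative of the family (SE; limma adjusted p = 0.525). Of its exon bases, 4.06% are shared with inx-11, an innexin gene on the opposite strand, and the library kit does not mark strand. The levels of inx-11 were 4.54, 4.34, 3.77 and 4.98 FPKM in DL 1 to DL 4, against 8.88, 8.05, 5.58 and 4.72 FPKM in NL 1 to NL 4. NL 1 and NL 2 were the highest libraries of inx-11 too. The part of the shared bases in the values of mrps-11 was not tested.

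How alike the members were was described by Pearson's r of log2(FPKM + 1) over the 8 libraries, whose values share the scaling of each library. The median r over the 2415 pairs of members was 0.66, and 95.2% of the pairs had a positive r. With the mean of the other members, 36 genes had an r above 0.8, and the median was 0.81. The closest were mrpl-15 at 0.98, mrps-18.C at 0.97 and mrps-7 at 0.97. The least close after mrps-11, at -0.38, were mrps-25 at 0.27, mrpl-50 at 0.43, mrpl-32 at 0.45 and mrpl-40 at 0.46. The levels of mrps-25 were 34.8, 56.7, 76.7 and 58.3 FPKM in DL 1 to DL 4, against 59.2, 54.6, 48.8 and 43.6 FPKM in NL 1 to NL 4. Those of mrpl-40 were 28.5, 52.2, 78.1 and 61.4 FPKM in DL 1 to DL 4, against 46.7, 48, 40.1 and 39.4 FPKM in NL 1 to NL 4. In both genes DL 1 was the lowest library and DL 3 the highest, and NL 1 and NL 2 lay above NL 3 and NL 4. The gene mrpl-50 was nearly level, with 62.6, 72.5, 60.1 and 71.7 FPKM in DL 1 to DL 4, against 58.7, 60.7, 66.4 and 58.5 FPKM in NL 1 to NL 4. In all, 15 of the 70 genes did not have NL 1 and NL 2 as the 2 lowest libraries in RPM, among them mrps-11, mrps-25, mrpl-40, mrpl-50, mrpl-11, mrpl-21, mrpl-36 and mrpl-45.

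Outside the family, the genes most like its summed FPKM over the 8 libraries, of 7814 compared, were scrm-3 (r = 0.99), eif-3.G (0.98), gcsh-1 (0.98), pdi-2 (0.98) and ufm-1 (0.98). These encode a scramblase family protein, a subunit of translation initiation factor eIF3, a glycine cleavage system protein, a protein disulfide isomerase and a ubiquitin-fold modifier. In all 36 genes had an r above 0.95. The levels of eif-3.G were 105, 115.1, 139.9 and 127 FPKM in DL 1 to DL 4, against 86.5, 82.4, 119.3 and 128 FPKM in NL 1 to NL 4. Its lowest libraries were NL 1 and NL 2, as in the family.

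Other genes of mitochondrial translation mostly had positive log2 changes, and none passed the test. The gene dap-3 encodes a further protein of the small subunit that carries another kind of symbol. Its levels were 51.3, 56, 57.5 and 59.8 FPKM in DL 1 to DL 4, against 38.9, 37.7, 42.1 and 53.8 FPKM in NL 1 to NL 4. NL 1, NL 2 and NL 3 lay below every DL library, and NL 4 within the range of DL. For dap-3 the log2 change was 0.39 ± 0.14 (SE; limma adjusted p = 0.167). The log2 change was positive in all 8 tested genes of a translation factor list (median 0.31), against 53.5% of all tested genes. Of the 8 genes in the list, 2 were higher at an unadjusted limma p under 0.05, against 12.4% of all tested genes. That list also holds oxa-1 and letm-1 (log2 changes 0.30 and 0.20), which encode inner membrane proteins rather than translation factors. Without NL 1 and NL 2, 7 of these 8 were positive (median 0.28), whereas of the mitochondrial ribosomal protein genes 38 of 70 were (median 0.02). NL 1 and NL 2 were left out after the values were seen, and they are the lowest libraries of the ribosomal protein genes. Leaving them out lowers the difference of those genes by itself, so this contrast between the lists gives no separate result. The contrast was not tested. The elongation factor gene tsfm-1 had 65.5, 79.6, 89.2 and 88.2 FPKM in DL 1 to DL 4, against 42.7, 40.3, 46.3 and 68.1 FPKM in NL 1 to NL 4. NL 4 reached the level of DL 1, and the other NL libraries lay below. Its log2 change was 0.72 ± 0.19 (SE; limma adjusted p = 0.101), and with 1 library left out at a time the adjusted p was 0.0364 to 0.275. The lowest came without NL 4, the one NL library that reaches DL in this gene, in a fit that called 221 of all genes (1.54%), and the other 7 fits did not call tsfm-1. Its partner tufm-1 stood 0.40 ± 0.17 higher on the log2 scale (SE; limma adjusted p = 0.222).

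Of 12 tested mitochondrial tRNA synthetase genes, which load the tRNAs, 10 were positive (median log2 change 0.19), against 53.5% of all tested genes. Of the 12, 2 were higher at an unadjusted limma p under 0.05, against 12.4% of all tested genes. Without NL 1 and NL 2, 11 of the 12 were positive (median 0.21). The smallest p belonged to fars-2, with 38, 45.5, 49 and 49.4 FPKM in DL 1 to DL 4, against 31.2, 30.3, 34.6 and 33.2 FPKM in NL 1 to NL 4. Its groups did not overlap, and the log2 change was 0.47 ± 0.13 (SE; limma adjusted p = 0.103). The list of assembly factors was positive in 4 of 6 tested genes (median 0.16). In that list the smallest p was that of era-1, with 4.57, 14.5, 5.55 and 3.32 FPKM in DL 1 to DL 4, against 3.17, 4.195, 4.22 and 1.60 FPKM in NL 1 to NL 4. DL 2 lay far above the rest. Oocyte and eggshell markers likewise had DL 2 as the highest library and NL 4 as the lowest. The gene was listed by its symbol, and whether the worm gene acts in assembly of the mitochondrial ribosome was not examined. The count and the median include it. Genes that keep and transcribe mitochondrial DNA were positive in 2 of 5 (median -0.05), and twnk-1, the helicase gene of that list, stood at -0.29 ± 0.21 on that scale (SE; limma adjusted p = 0.48). Genes of the mitochondrial stress response were positive in 11 of 13 (median 0.27), against 53.5% of all tested genes, with 0 called. Of the 13, 3 were higher at an unadjusted limma p under 0.05, against 12.4% of all tested genes. Without NL 1 and NL 2, 11 of the 13 were again positive (median 0.22). The mean log2(FPKM + 1) of the list was 5.29, 5.34, 5.46 and 5.46 in DL 1 to DL 4, against 5.11, 5.19, 5.03 and 5.28 in NL 1 to NL 4, so that NL 3 was lowest in this list. The chaperone gene hsp-60 had 179, 272, 279 and 245 FPKM in DL 1 to DL 4, against 118, 114, 181 and 234.7 FPKM in NL 1 to NL 4, with NL 1 and NL 2 the lowest libraries. Its partner in the matrix, the chaperone gene hsp-6, had 286, 355, 338 and 327 FPKM in DL 1 to DL 4, against 249, 253, 225 and 289 FPKM in NL 1 to NL 4, with NL 3 the lowest library. In the co-chaperone gene dnj-10 NL 3 was also the lowest, and dnj-10 stood 0.53 ± 0.13 higher on the log2 scale (SE; limma adjusted p = 0.0945).

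The genes that the mitochondrial ribosome translates had NL 1 and NL 2 as their lowest libraries too, whereas nuclear respiratory chain and cytosolic ribosomal protein genes did not. The 12 protein-coding genes of mitochondrial DNA took 3.14, 2.51, 2.05 and 3.73% in DL 1 to DL 4, against 1.58, 1.89, 3.02 and 2.23% in NL 1 to NL 4. The lowest library was NL 1, the next NL 2, but DL 3 was close to NL 2 and DL 4 was highest, so these shares spread more widely than those of the ribosomal protein genes. Of these genes 11 were positive, with a median log2 change of 0.26, and 0 were called. Without NL 1 and NL 2, 5 of the 12 were positive (median -0.01), and without NL 3 and DL 2 all 12 were (median 0.45). Leaving out the lowest libraries, both of NL, lowers the difference by itself. These counts therefore give no separate link to the ribosomal protein genes. Nuclear genes of the respiratory chain took 2.02, 1.97, 2.40 and 2.21% in DL 1 to DL 4, against 2.35, 2.34, 2.07 and 2.22% in NL 1 to NL 4. NL 1 and NL 2 were among the higher libraries here. Their median log2 change was -0.05, with 16 of 46 tested genes positive and 0 called, and the smallest p was that of sdha-2 (log2 change 0.66 ± 0.20, SE; limma adjusted p = 0.115). The cytosolic ribosomal protein genes took 8.55, 10.4, 15.5 and 13.1% in DL 1 to DL 4, against 12.8, 12, 11.1 and 12% in NL 1 to NL 4. DL 1 and DL 3 were the ends of that range, and NL 1 and NL 2 lay inside it. Of these genes 24 of 82 were positive, with a median log2 change of -0.04 and 0 called. The gene with the smallest p in that list was rpl-42 (limma adjusted p = 0.0922), which stood at 1.12 to 3.41 FPKM in DL and 0 to 0.835 FPKM in NL.

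In whole worms, fewer cells of a type and less RNA per cell cannot be told apart. Marker genes of tissues differed between the libraries as well. Body wall muscle markers took 1.65, 1.61, 1.79 and 1.36% in DL 1 to DL 4, against 2.47, 2.39, 1.65 and 1.98% in NL 1 to NL 4, so that NL 1 and NL 2 were highest, and NL 4 next. All 16 had negative log2 changes (median -0.39), with a summed level in FPKM of 7620.01 to 10778 in DL and 9706 to 13568 in NL. Germline markers had positive log2 changes in 19 of 20 (median 0.39), with a summed level in FPKM of 868 to 1641 in DL and 603 to 1013 in NL. Their share of reads was 0.231, 0.363, 0.201 and 0.183% in DL 1 to DL 4, against 0.153, 0.18, 0.229 and 0.131% in NL 1 to NL 4. NL 4 was lowest here, whereas in the mitochondrial ribosomal protein genes NL 4 lay at the level of DL. Sperm markers were positive in 19 of 19 tested (median 3.32), with a summed level in FPKM of 559.8 to 2283 in DL and 8 to 679 in NL, and NL 4 was again the lowest library. Hypodermis markers had NL 1 and NL 2 as their lowest libraries by their mean log2(FPKM + 1), as the mitochondrial ribosomal protein genes did, though not by their summed level. Their mean log2(FPKM + 1) was 7.46, 8.03, 7.75 and 7.61 in DL 1 to DL 4, against 7.04, 7.08, 7.56 and 7.37 in NL 1 to NL 4, and their summed level in FPKM 3593 to 7507 in DL and 4454 to 7034 in NL. Of these markers 9 of 13 were positive (median 0.26), and without NL 1 and NL 2 4 of 13 were (median -0.13). Intestine markers were positive in 3 of 12 (median -0.22), with a summed level in FPKM of 5904 to 10261 in DL and 8727 to 10862 in NL. Neuron markers were positive in 1 of 16 (median -0.29), with a summed level in FPKM of 469.6 to 645 in DL and 598 to 725 in NL. Oocyte and eggshell markers were positive in 15 of 15 (median 1.18), with a summed level in FPKM of 125 to 676 in DL and 47.7 to 220.03 in NL. Markers of adults were positive in 6 of 7 tested, with a summed level in FPKM of 8.51 to 431 in DL and 0.629 to 224 in NL. No marker of these lists was at 0 in all libraries. Their part in the levels of the mitochondrial ribosomal protein genes was not tested.

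The genes also shared features of position that the symbols do not fix. In the annotation of WBcel235, 15 lie on chromosome I, 12 on II, 22 on III, 11 on IV, 10 on V and 0 on X. As shares these are 21.4%, 17.1%, 31.4%, 15.7%, 14.3% and 0%, against 16.5%, 16.9%, 15.9%, 17.1%, 19.8% and 13.9% of the 13549 tested protein-coding genes of the nuclear chromosomes. Of the cytosolic ribosomal protein genes 2 of 82 lie on X, and of the nuclear respiratory chain genes 6 of 47. No test was made of these shares.

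**Figure D5:**
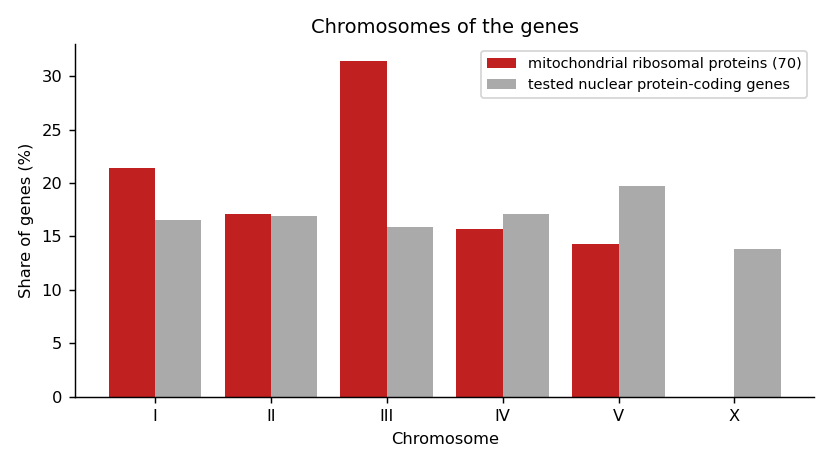
Share of genes (%) on each of the chromosomes I to V and X, for the 70 mitochondrial ribosomal protein genes (red) and all tested nuclear protein-coding genes (grey), bars from 0. The red bars are highest on III, at 31.4%, and absent on X, where 13.9% of the tested genes lie.

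Many worm genes lie in operons, rows of genes on 1 strand that are transcribed together, with short gaps between neighbours. Of the 70 genes 47 (67.1%) had a protein-coding neighbour on the same strand within 500 bases, against 38.2% of the tested genes, 50% of the cytosolic ribosomal protein genes and 59.6% of the nuclear respiratory chain genes. A gap of 80 to 120 bases was found beside 29 (41.4%), against 11.8% of the tested genes. For the cytosolic ribosomal protein genes this share was 25.6%, and for the nuclear respiratory chain genes 29.8%. Whether these genes are in operons was not examined. A single pair of members are such neighbours: mrps-2 (chromosome V, 8465686 to 8467159, plus strand) and mrpl-4 (chromosome V, 8467265 to 8468943, plus strand) lie 105 bases apart, and their levels over the 8 libraries had an r of 0.83. The small subunit gene dap-3 (chromosome II, 10581133 to 10582512, plus strand) lies 105 bases before mrps-22, and the r of these genes was 0.95. Set against the mean of the other members, r was 0.86 for mrps-2, 0.86 for mrpl-4 and 0.90 for mrps-22. The 47 genes with a close neighbour had a median level of 44 FPKM and a median log2 change of 0.22, and the 23 without one 48.3 FPKM and 0.25. The genes were short, with a median of 755 bases of exon (309 to 2164), against 1362 for the tested protein-coding genes. Cytosolic ribosomal protein genes were shorter still, at 532, and nuclear respiratory chain genes stood at 919.

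Reads can be shared with overlapping genes. Of the members 21 overlap another protein-coding gene, 20 share exon bases with it and 6 share over 10% of their own. These are mrpl-42 (59.3%, lpl-1), mrps-16 (27.8%, ilcr-2), mrps-18A (24%, iglr-2), mrpl-1 (18.1%, emc-6), mrpl-34 (11.3%, aha-1) and mrps-35 (11.1%, sws-1). Their values are uncertain, and these shares of bases do not give the size of the error. For mrpl-12 the share was 8.09%.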

How the data were processed

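The authors deposited a single table with an FPKM column for each library, as its header states. The submitters' processing notes name HISAT2, HTSeq and the build WBcel235. Neither versions, annotation, strand setting nor filters are given in the sources used here. The total by which the authors scaled each library's FPKM is not described. Gene symbols and exon lengths came from the Ensembl release 115 annotation of WBcel235, in which 44113 of 46934 WormBase IDs matched a symbol. With these lengths, 22881 of 22985 genes (99.55%), all 70 members included, gave whole reads in all libraries within 0.05 read, and these reads gave depth, shares and RPM.

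The test between DL and NL was limma 3.58.1 (R 4.3.3) on log2(FPKM + 1), which understates changes of low genes. It covered the 14358 genes whose mean reached 1 FPKM, with an intensity trend, a two-sided test and Benjamini-Hochberg adjustment at 0.05. Members were read from this fit, which was tested on simulated data. No set test was used. Since each replicate number carries 1 batch label, the numbers pair the libraries; deviations of the 4 pairs from their group means correlated at -0.01, -0.19, -0.32 and 0.19. The pathway and marker lists follow known gene functions, apart from the genes of mitochondrial DNA, which were taken by chromosome because their listed symbols matched none. The classes with and without a bacterial counterpart were added after the values were seen. Members and lists were chosen with earlier results of these data known. Named genes were the 5 largest log2 changes in each direction, the 4 highest and 4 lowest levels, mrps-5, members whose groups did not overlap, the smallest p of each list and the 5 genes most like the summed members. Other members with values were chosen for their role after their values were seen. Python 3.11.15, pandas 2.3.3, numpy 2.4.6, scipy 1.17.1 and matplotlib 3.10.9 prepared tables and figures. Other settings were tried for the scaling between libraries, the pseudocount, the filter on low values, the batch block and the set of libraries.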

Additional observations from a re-analysis of the deposited data

Results flagged for a closer look

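Over the 18 named members, each group of 4 libraries was examined for a single library far from the other 3, by Dixon's ratio of the nearest gap to the whole range (95% critical value). This marked 4 of 36 groups, and 13 of 140 over all members, where chance marks about 1 in 20 independent groups. The members vary together over the same 8 libraries, and some were named for extreme values. These groups are therefore not independent, and the counts show no excess over chance. In DL, mrpl-11 stood at 59.2 FPKM in DL 1, against 86.1 to 88.3 FPKM in the other DL libraries. Likewise in DL, mrpl-45 stood at 14 FPKM in DL 1, against 23 to 24.2 FPKM in the others. In NL, mrpl-42 stood at 29.4 FPKM in NL 3, against 19.98 to 20.9 FPKM in the others. For mrps-5, NL 4 stood at 82 FPKM, against 68.3 to 69.98 FPKM in the other NL libraries. In RPM, which leaves out the scaling of the deposited values, the ratio stayed above the critical value for mrpl-42 (0.905) and was 0.667 for mrpl-11, 0.707 for mrpl-45 and 0.792 for mrps-5, all under it.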

How the results depend on the processing

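No alternative but 1 called a member: the count was 0 throughout, and 0 to 1 with libraries left out, the 1 being mrpl-51 without NL 3. The members' median log2 change was 0.18 to 0.24 over the alternatives that kept all libraries, and 0.15 to 0.32 with 1 library left out. It was 0.30 without NL 3 and DL 2, and 0.02 (0.01 in RPM) without NL 1 and NL 2. Leaving out NL 1 and NL 2 together, and the RPM scale, were added after the data were seen. Over all genes, 101 calls became 33 with no filter on low values, 216 with quantile normalization and 25 with the batch block, which lost 78 of the 101 and added 2. The block changed the call of no named gene. They became 1493 without NL 3 and DL 2, 6 without NL 1 and NL 2 (2 in RPM), and 9 (without NL 1 or without NL 2) to 1561 (without NL 3) with 1 library left out; leaving out NL 4, DL 1, DL 2, DL 3 or DL 4 gave 221, 42, 134, 19 and 15. The split of 42 higher and 59 lower was 40 and 32 with equal sums, 67 and 149 with quantile normalization and 44 and 106 with centring on the median gene.

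Signs turned for these genes, none of them called, with libraries left out. Without NL 1 and NL 2, log2 changes were -0.0416 for mrpl-11, -0.0764 for mrpl-12, -0.0977 for mrpl-20, -0.106 for mrpl-9, -0.0299 for eif-3.G and -0.0442 for scrm-3, the lowest over the fits with libraries left out, whose highest were 0.236, 0.371, 0.612, 0.386, 0.349 and 0.509. In RPM without these libraries they were -0.0568, -0.0916, -0.114, -0.122, -0.0447 and -0.0939, and -0.0056 for ufm-1. The ranges with libraries left out were -0.556 to 0.116 for mrpl-32, -0.502 to 0.0351 for mrpl-41, -0.562 to 0.11 for mrps-28 and -0.363 to 0.141 for mrps-33. These 4 were positive without NL 3 and DL 2 (0.0319, 0.0007, 0.026 and 0.1405). The planned count test on recovered reads was not run, since the deposited unit is FPKM; limma on log2 RPM was added in its place. What caused these shifts was not tested. Members held 165 to 2510 reads per library, so counting error is widest for the shortest ones.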
